A study of Homo sapiens with 9 samples.

Results

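The genes described here copy DNA or drive cells from G1 into S phase: 34 genes chosen by symbol, from the origin recognition and MCM proteins to E2F1 and the E cyclins. Each was represented by the probe set that was brightest on average over all arrays, and all 34 were measured, out of 11963 genes with a probe set of a single symbol. The series holds 9 arrays of RNA labelled as human neuroblastoma IMR-32, and the chosen 34 of their 55 probe sets were above the highest lower quartile of any array (62.7) on every array, with a lowest value of 127. Total RNA was hybridised to oligonucleotide arrays with 3 arrays in each of 3 groups, which the series' text calls biological replicates. The groups were a line stably carrying the 69-kDa form of choline acetyltransferase (ChAT, the enzyme that makes acetylcholine), a line stably carrying the 82-kDa form, and arrays labelled wild type. No treatment, time or selection agent is named in the labels, a separate line carries each form, and the labels leave out whether a line is a single clone. The form of ChAT and the line can therefore not be told apart.

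Replication starts at origins that the origin recognition complex, CDC6 and CDT1 load with the MCM helicase during G1. In S phase CDC45 and the GINS complex turn MCM into the active helicase, the clamp loader RFC places the sliding clamp PCNA, and polymerases copy both strands. Cyclin E with CDK2 and the E2F transcription factors drive this step, and E2F factors activate many of these genes. IMR-32 carries extra copies of MYCN, a growth-promoting transcription factor, and MYC family proteins are known to promote entry into S phase.

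The labels were checked first. CHAT, from which both transgenes derive, read 256, 175 and 177 with the 69-kDa form, 1066, 423 and 1067 with the 82-kDa form and 148, 125 and 114 on the arrays labelled wild type (replicates 1, 2 and 3, linear intensity, as in all lists of 3 values below). MYCN ranged over 4181 to 5947 with the 69-kDa form and 4301 to 6118 with the 82-kDa form but reached only 120.5 in the labelled wild type (lowest 62.5), which goes against an IMR-32 label. Of 11 measured neuroblastoma markers 8 rose in each line, and their summed intensity was 10610 to 17634 (69-kDa), 13348 to 20133 (82-kDa) and 1611 to 1846 (labelled wild type). Of 10 epithelial markers 7 fell in each line, with sums of 580.2 to 651 (69-kDa), 583 to 658 (82-kDa) and 6521 to 7347 (labelled wild type), and KRT19 and DSP read at most 33.1 in both lines. The noradrenaline synthesis genes DBH and TH stayed between 38.8 and 102 in all 3 groups. The arrays labelled wild type also correlated with the lines at only 0.913 to 0.933 over all probe sets, against 0.976 to 0.994 between the lines. Every difference from these arrays below moves with those markers, and the part of the markers in it was not tested. In RNA from whole cultures, fewer cells in S phase and less RNA per cell cannot be told apart.

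In the 69-kDa line 3 of the 34 genes rose and 7 fell against the arrays labelled wild type, which is 29.4% of the 34 beside 26.2% of all 22215 probe sets tested (10.9% higher and 15.3% lower; limma on log2 intensity, two-sided, Benjamini-Hochberg adjusted p under 0.05). In the 82-kDa line 3 rose and 6 fell, 26.5% beside 26.8% (11% higher and 15.7% lower). Over all 11963 genes, each by its brightest probe set like the 34, the shares called were 29.4% (69-kDa) and 30.3% (82-kDa). The other gene lists below also use the brightest probe set of each gene, so these shares by gene are their closer comparison. The share that changed was thus near the background of these very different arrays, and in each line genes moved both ways. The median log2 difference of the 34 was -0.22 (69-kDa line) and -0.11 (82-kDa line), beside 0.058 for 69-kDa and 0.062 for 82-kDa over all probe sets. The 82-kDa median rests on replicate 1 of its line, and the 69-kDa median does so only in part. Without that array the median was -0.13 for 69-kDa and -0.0063 for 82-kDa. In replicates 2 and 3 alone the 69-kDa median was -0.14, where 10 genes lay higher and 24 lower. The 82-kDa median was 0.023 there, where 17 genes lay higher and 17 lower. Both comparisons use the same 3 arrays labelled wild type. By the same test, 8 genes were called in both lines: GINS2, CDC45, CDT1, CCNE1, RFC2 and RPA3 fell, ORC1 and E2F1 rose, and 0 were called in opposite directions. Of all probe sets 13.7% were called lower in both lines and 9.05% higher. Groups without overlap were counted too. In the 69-kDa line 4 of the 34 genes lay wholly above and 16 wholly below the labelled wild type (22.5% and 21.2% of all probe sets, 43.7% in either direction), and in the 82-kDa line 4 above and 8 below (20.9% and 21.3%, 42.3% in either direction). Genes wholly below were thus more frequent among the 34 than among all probe sets in the 69-kDa line, and genes wholly above less frequent, which was not tested.

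**Figure D1:**
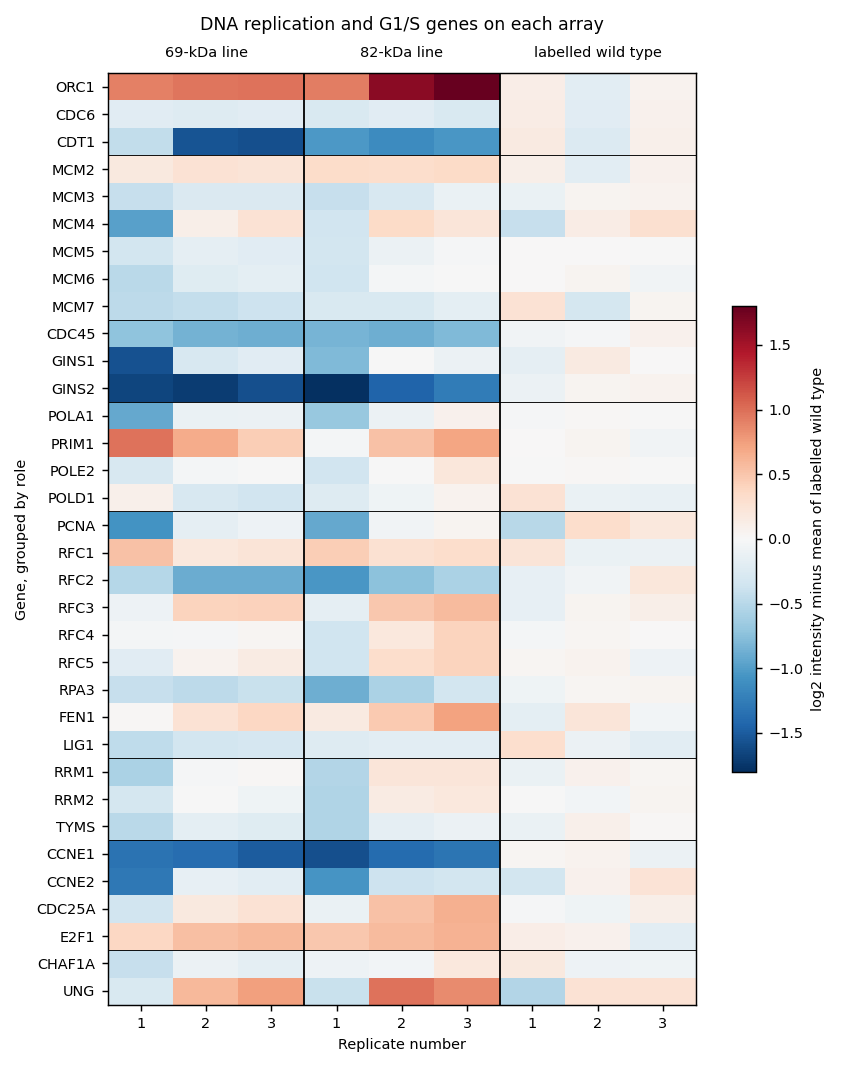
Heat map of the 34 genes (rows, grouped by role) on the 9 arrays (columns, replicates 1 to 3 of the 69-kDa line, the 82-kDa line and labelled wild type). Colour is log2 intensity minus the gene's mean on the arrays labelled wild type. GINS2, CCNE1, CDT1 and CDC45 are blue on all 6 arrays of the lines, ORC1 and E2F1 are red on all 6, and replicate 1 is bluer than replicates 2 and 3 at genes such as PCNA and MCM4.

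Deviations from the group means correlated across groups between arrays of the same number (r = 0.28 to 0.57 over probe sets), so the fit with the replicate number as a block is given beside these counts. Replicates 2 and 3 of different groups also correlated with each other (0.21 to 0.48), so the values set replicate 1 apart and do not show that numbers 2 and 3 pair. With the block 4 genes rose and 13 fell in the 69-kDa line (50% of the 34, beside 36.5% of all probe sets, 16.6% higher and 19.9% lower), and 6 rose and 10 fell in the 82-kDa line (47.1% beside 38.2%, 17.9% higher and 20.3% lower). Over all genes by brightest probe set the shares with the block were 40.3% for 69-kDa and 42% for 82-kDa. The genes added in both lines were MCM3, PCNA, TYMS and CCNE2, which fell, and RFC1, which rose. The dimmer probe sets of CCNE2 and RFC1 did not pass with the block in either line. MCM6 and GINS1 were added as lower in the 69-kDa line, and FEN1 and UNG as higher in the 82-kDa line. The dimmer probe set of FEN1 passed with the block as higher in both lines.

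Promoter sequences are shown for 5 genes that were called in both lines, 3 of them lower and 2 higher, because the genes of this group are known as E2F targets and moved in opposite directions. Each stretch is the 100 bases before the RefSeq start of the gene (GRCh38.p14), written 5′ to 3′ on the gene's strand, and capitals mark an E2F-type motif. The letters searched were TTTCCCGC, TTTCGCGC, TTTGCCGC and TTTGGCGC on both strands, and overlapping matches were counted.
GINS2, chr16:85688955-85689054, minus strand: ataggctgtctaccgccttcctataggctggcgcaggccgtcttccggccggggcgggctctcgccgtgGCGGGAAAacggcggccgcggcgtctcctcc
CDT1, chr16:88803689-88803788, plus strand: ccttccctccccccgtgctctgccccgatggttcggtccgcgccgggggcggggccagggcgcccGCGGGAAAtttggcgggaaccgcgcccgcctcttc
CCNE1, chr19:29811891-29811990, plus strand: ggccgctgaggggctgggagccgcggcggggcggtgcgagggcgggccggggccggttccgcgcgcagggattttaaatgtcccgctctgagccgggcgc
ORC1, chr1:52404424-52404523, minus strand: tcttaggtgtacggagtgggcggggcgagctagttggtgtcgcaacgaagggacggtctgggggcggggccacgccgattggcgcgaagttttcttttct
E2F1, chr20:33686386-33686485, minus strand: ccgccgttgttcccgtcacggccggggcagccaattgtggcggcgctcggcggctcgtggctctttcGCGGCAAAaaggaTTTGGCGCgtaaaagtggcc
The window searched ran from 250 bases before to 50 after the start. Of the 34 genes 30 were in the RefSeq promoter table, and 17 of these 30 (56.7%) held a match, beside 6.08% of the 9562 genes with a probe set on the array and 3.99% of all 27305 genes in the table. The median GC content was 67.8% in the promoters of these genes and 63.3% in those of genes on the array. GINS2 and CDT1, which fell, held 1 match each in the stretch shown, at positions -31 and -35 of the start, and E2F1, which rose, held 2, at -33 and -20. CCNE1, which fell, and ORC1, which rose, held 0 in these letters. Of the 5 genes with a promoter that fell in both lines 2 held a match, and of the 20 called in neither line 12 did. Of the 2 that rose in both lines 1 held a match, and of the 3 called in 1 line 2 did. These counts are small and were not tested. MCM4, MCM5, RPA3 and CCNE2 had no entry.

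Origin licensing genes went in opposite directions. ORC1, the largest subunit of the origin recognition complex, read 349, 362 and 367 with the 69-kDa form, 352, 577 and 659 with the 82-kDa form and 203, 164 and 195 on the arrays labelled wild type. All 6 arrays of the lines lay above all 3 of the labelled wild type, and replicate 1 of the 82-kDa line lay below the other two of that line. ORC1 was 1.93-fold higher in the 69-kDa line (log2 difference 0.95 (SE 0.21), adjusted p = 0.0092) and 2.74-fold higher in the 82-kDa line (1.46 (SE 0.21), adjusted p = 0.00094). CDT1, which brings MCM to origins, read 295, 138 and 135 with the 69-kDa form, 197, 184 and 194 with the 82-kDa form and 449, 337 and 429 on the arrays labelled wild type. No array of a line reached the labelled wild type, although replicate 1 of the 69-kDa line came near it. CDT1 was 2.28-fold lower in the 69-kDa line (log2 difference -1.19 (SE 0.28), adjusted p = 0.012) and 2.1-fold lower in the 82-kDa line (-1.07 (SE 0.28), adjusted p = 0.020). The call in the 82-kDa line was lost without its replicate 2 (adjusted p = 0.063), its replicate 3 (0.052) or replicate 1 (0.068) or 3 (0.066) of the labelled wild type. CDC6, the other MCM loader, read 613, 605 and 613 with the 69-kDa form, 589, 613 and 585 with the 82-kDa form and 779, 613 and 746 on the arrays labelled wild type, so the groups touched and it was not called (adjusted p = 0.15 for 69-kDa and 0.092 for 82-kDa).

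The 6 subunits of the MCM helicase differed little, and the single calls, 1 in each line, went opposite ways. In the 69-kDa line 5 of the 6 lay lower (median log2 difference -0.26), and in the 82-kDa line 4 did (-0.15). With the block MCM3, MCM6 and MCM7 fell in the 69-kDa line (50% beside 36.5% of all probe sets). In the 82-kDa line MCM2 rose and MCM3 fell with the block (33.3% beside 38.2%). MCM2 read 2804, 2946 and 2912 with the 69-kDa form, 3112, 3069.7 and 3142 with the 82-kDa form and 2659, 2172 and 2613 on the arrays labelled wild type. Both lines lay wholly above the labelled wild type, and MCM2 rose 1.26-fold in the 82-kDa line (adjusted p = 0.025), while its log2 difference of 0.22 in the 69-kDa line was not called (0.11). MCM7 read 1958, 2022 and 2098 with the 69-kDa form, 2248, 2248 and 2405 with the 82-kDa form and 3263, 2189.6 and 2832 on the arrays labelled wild type. It fell 1.35-fold in the 69-kDa line (adjusted p = 0.045) and was not called in the 82-kDa line (0.23), where replicate 2 of the labelled wild type lay below all 3 arrays of the line. The dimmer probe set of MCM7 differed by -0.43 in the 69-kDa line, was not called (adjusted p = 0.087) and passed with the block (0.030). The MCM2 call was lost without replicate 2 (adjusted p = 0.067) or 3 (0.068) of the 82-kDa line or replicate 2 of the labelled wild type (0.067). The MCM7 call was lost when any array other than replicate 2 of the labelled wild type was left out (adjusted p = 0.050 to 0.13).

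The other 4 MCM genes were not called without the block. MCM3 read 1993, 2229 and 2224 with the 69-kDa form, 1992, 2182 and 2444 with the 82-kDa form and 2458, 2744 and 2788 on the arrays labelled wild type, with no overlap. Its log2 differences of -0.31 for 69-kDa and -0.27 for 82-kDa missed the threshold (adjusted p = 0.052 for 69-kDa and 0.078 for 82-kDa) and passed with the replicate block (0.0083 for 69-kDa and 0.013 for 82-kDa). MCM5 read 1089, 1229.7 and 1189 with the 69-kDa form, 1088, 1276 and 1347 with the 82-kDa form and 1379, 1373 and 1359 on the arrays labelled wild type. MCM6 read 1871, 2263 and 2339.9 with the 69-kDa form, 2045, 2559 and 2609 with the 82-kDa form and 2652, 2732 and 2514 on the arrays labelled wild type. Both lay lower in the 69-kDa line than in the labelled wild type on every array, by differences of -0.23 (95% interval -0.45 to -0.01) and -0.29 (-0.57 to -0.01). MCM4 read 779, 1653 and 1839 with the 69-kDa form, 1200.2, 1934 and 1771 with the 82-kDa form and 1147, 1675 and 1863 on the arrays labelled wild type, where replicate 1 was the low array of every group. The intervals of its difference ran from -0.98 to 0.58 in the 69-kDa line and from -0.71 to 0.84 in the 82-kDa line, the widest among the MCM genes.

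The helicase activators held the largest decrease of the 34 genes in both lines. GINS2, a subunit of the GINS complex, read 390.2, 374 and 408 with the 69-kDa form, 341, 449.8 and 513 with the 82-kDa form and 1138, 1259.8 and 1273 on the arrays labelled wild type. Even the highest array of a line lay far below the lowest labelled wild type. GINS2 was 3.13-fold lower in the 69-kDa line (log2 difference -1.65 (SE 0.14), adjusted p = 4.8e-05) and 2.85-fold lower in the 82-kDa line (-1.51 (SE 0.14), adjusted p = 7.9e-05). CDC45 read 512, 468 and 463 with the 69-kDa form, 473, 462 and 488 with the 82-kDa form and 809, 839 and 899 on the arrays labelled wild type. The lines had nearly the same level, and CDC45 was 1.76-fold lower in the 69-kDa line (adjusted p = 8.7e-05) and 1.79-fold lower in the 82-kDa line (7.6e-05). GINS1, another GINS subunit, read 442, 1071 and 1139 with the 69-kDa form, 756, 1303 and 1217 with the 82-kDa form and 1169, 1466 and 1309.9 on the arrays labelled wild type, and was not called (adjusted p = 0.21 for 69-kDa and 0.57 for 82-kDa). Replicate 1 was the lowest array of each group for GINS1, and its decrease in the 69-kDa line passed with the block (adjusted p = 0.037).

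**Figure D2:**
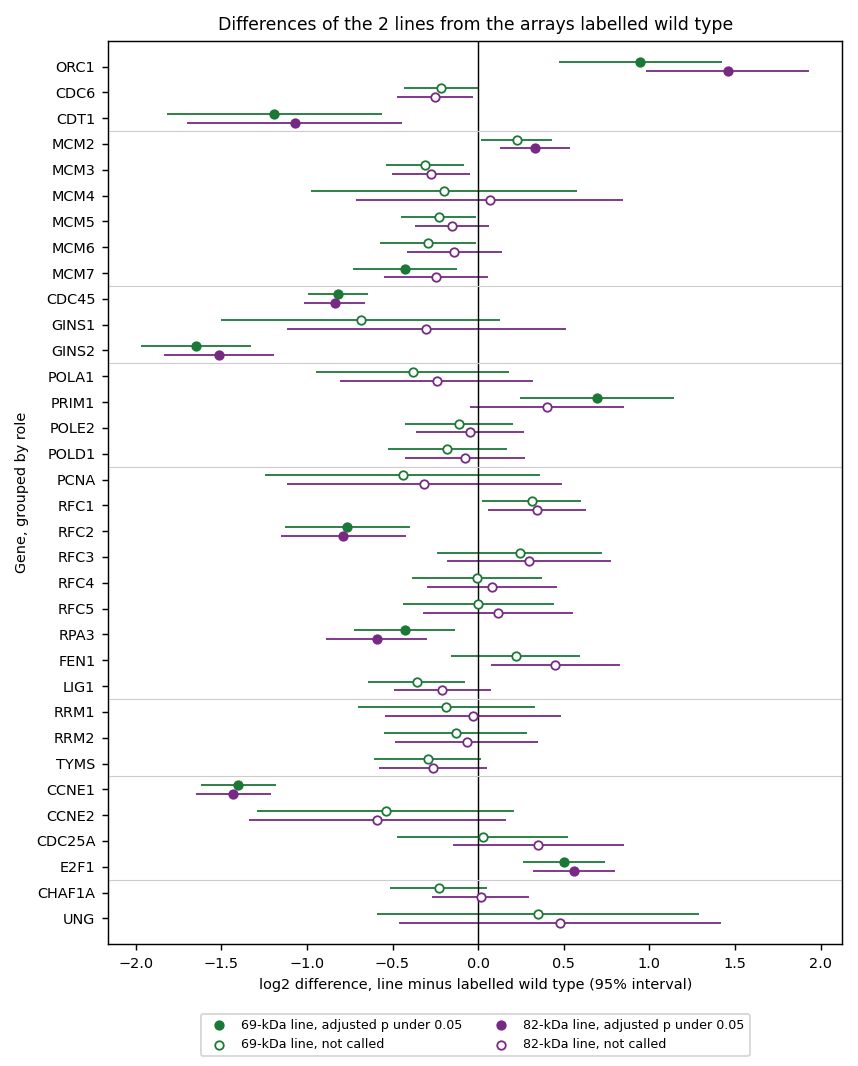
Log2 difference of each of the 34 genes from the arrays labelled wild type, in the 69-kDa line (green) and the 82-kDa line (purple), with the 95% interval of the fit to 9 arrays. Filled points passed an adjusted p of 0.05. GINS2 and CCNE1 lie farthest left, near -1.5, ORC1 lies farthest right, and the intervals of genes with a low replicate 1, such as PCNA and MCM4, are wide.

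Polymerase genes were mostly not called. PRIM1, the catalytic subunit of primase, read 1676, 1350.2 and 1165 with the 69-kDa form, 830.4, 1234 and 1396 with the 82-kDa form and 858, 886 and 815 on the arrays labelled wild type. It was 1.62-fold higher in the 69-kDa line (adjusted p = 0.030), with no overlap, and its log2 difference was 0.40 (SE 0.20) in the other line (adjusted p = 0.18), whose replicate 1 lay inside the range of the labelled wild type. The PRIM1 call was lost without replicate 1 (adjusted p = 0.085) or 2 (0.076) of the 69-kDa line or any array labelled wild type (0.076, 0.070 and 0.093 without replicates 1, 2 and 3). In replicates 2 and 3 alone PRIM1 was higher in both lines (log2 difference 0.56 for 69-kDa and 0.63 for 82-kDa, adjusted p = 0.0051 for 69-kDa and 0.0032 for 82-kDa). POLA1 (catalytic subunit of polymerase alpha), POLE2 (an accessory subunit of polymerase epsilon) and POLD1 (catalytic subunit of polymerase delta) had differences of -0.38 to -0.05 over both lines and were not called with or without the block. POLA1 read 344 to 601 with the 69-kDa form, 404 to 682 with the 82-kDa form and a narrow 641 to 660.0 in the labelled wild type.

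Among the clamp, the clamp loader and the lagging-strand factors, RFC2 and RPA3 fell in both lines. RFC2, a clamp loader subunit, read 639, 491 and 492 with the 69-kDa form, 439, 544 and 617 with the 82-kDa form and 827, 875 and 1046 on the arrays labelled wild type. The groups did not overlap, and RFC2 was 1.7-fold lower in the 69-kDa line (adjusted p = 0.0072) and 1.73-fold lower in the 82-kDa line (0.0063). Its other probe set fell as well, by 0.73 for 69-kDa and 0.80 for 82-kDa on the log2 scale (adjusted p = 0.0094 for 69-kDa and 0.0058 for 82-kDa). The other clamp loader subunits did not follow it. RFC1, the large subunit, was 0.31 for 69-kDa and 0.34 for 82-kDa higher on the log2 scale, was not called without the block (adjusted p = 0.11 for 69-kDa and 0.081 for 82-kDa) and passed with it (0.011 for 69-kDa and 0.0070 for 82-kDa) and in replicates 2 and 3 alone (0.0056 for 69-kDa and 0.0020 for 82-kDa). Its next brightest probe set did not pass with the block (adjusted p = 0.071 for 69-kDa and 0.12 for 82-kDa). It passed in replicates 2 and 3 alone (0.016 for 69-kDa and 0.0067 for 82-kDa). With all replicates RFC4 and RFC5 differed by at most 0.12, and RFC3 by 0.24 for 69-kDa and 0.30 for 82-kDa. A dimmer probe set of RFC3 rose in the 82-kDa line (log2 difference 0.67, adjusted p = 0.026). The brighter probe set was not called there (adjusted p = 0.35). In replicates 2 and 3 alone the brighter probe set of RFC3 rose by 0.33 for 69-kDa and 0.45 for 82-kDa. Both differences passed (adjusted p = 0.0066 for 69-kDa and 0.0017 for 82-kDa). RFC4 (0.28, adjusted p = 0.044) and RFC5 (0.37, adjusted p = 0.011) also rose in those replicates in the 82-kDa line. Neither was called in them in the 69-kDa line (adjusted p = 0.92 for RFC4 and 0.28 for RFC5).

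RPA3, the smallest subunit of the single-stranded DNA binding protein RPA, read 941, 899.9 and 944 with the 69-kDa form, 678, 844 and 996 with the 82-kDa form and 1187, 1276 and 1289 on the arrays labelled wild type. It was 1.35-fold lower in the 69-kDa line (adjusted p = 0.039) and 1.51-fold lower in the 82-kDa line (0.0089), with no overlap in either. The call in the 69-kDa line was lost without any of 7 arrays, namely all 3 of that line, replicate 2 of the 82-kDa line and all 3 of the labelled wild type (adjusted p = 0.063 to 0.12). PCNA, the sliding clamp, read 1986, 3755 and 3949 with the 69-kDa form, 2211, 4008 and 4322 with the 82-kDa form and 2963, 5202 and 4772 on the arrays labelled wild type. The groups overlapped, yet each line lay below the labelled wild type at every replicate number. PCNA was therefore not called without the block (adjusted p = 0.42 for 69-kDa and 0.55 for 82-kDa) and was lower with it (log2 difference -0.44 for 69-kDa and -0.31 for 82-kDa, adjusted p = 0.0045 for 69-kDa and 0.019 for 82-kDa). FEN1, the flap nuclease of Okazaki fragments, differed by 0.22 for 69-kDa and 0.45 for 82-kDa (adjusted p = 0.39 for 69-kDa and 0.080 for 82-kDa), and its dimmer probe set rose in the 82-kDa line (0.65, adjusted p = 0.010). In the 69-kDa line the dimmer probe set of FEN1 differed by 0.34 and was not called without the block (adjusted p = 0.13). It passed there with the block (0.010) and in replicates 2 and 3 alone (log2 difference 0.35, adjusted p = 0.0085). LIG1, which seals those fragments, differed by -0.36 for 69-kDa and -0.21 for 82-kDa and was not called (adjusted p = 0.066 for 69-kDa and 0.27 for 82-kDa).

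**Figure D3:**
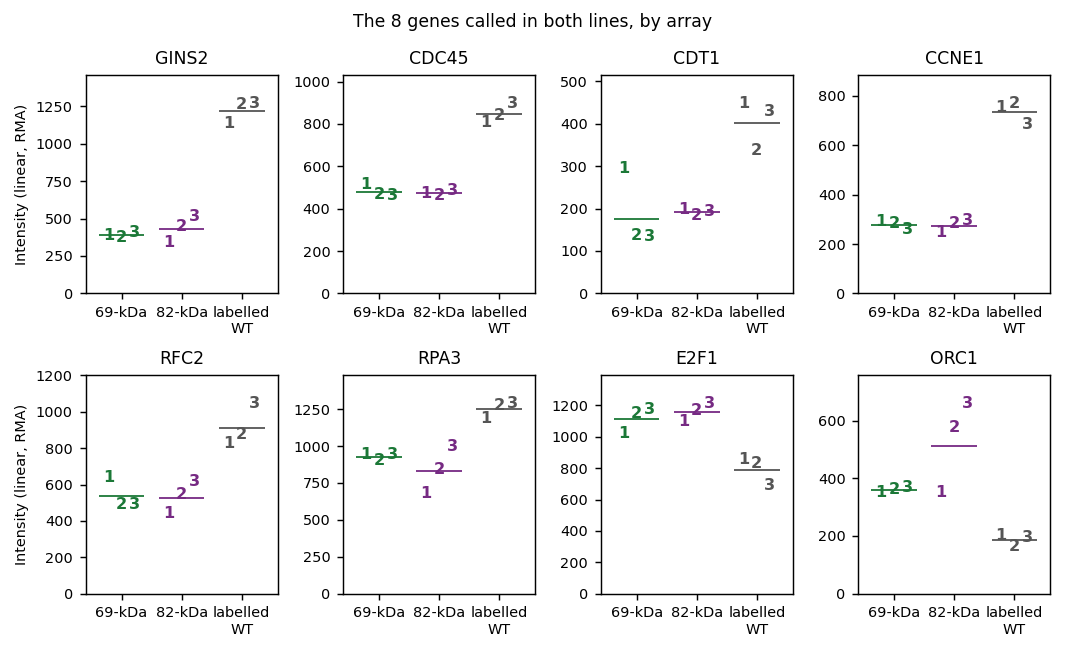
Linear intensity of the 8 genes called in both lines, in the 69-kDa line, the 82-kDa line and the arrays labelled wild type. Each digit is 1 array, placed at its value and showing its replicate number, and the line is the mean of the log2 values. The 6 genes that fell lie lower in both lines on every array, and E2F1 and ORC1 lie higher on every array.

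Genes of nucleotide supply were not called. RRM2, the regulatory subunit of ribonucleotide reductase, read 3305, 4084 and 3901 with the 69-kDa form, 2836, 4556 and 4669 with the 82-kDa form and 4084, 3983 and 4260.4 on the arrays labelled wild type by its brighter probe set. Replicate 1 was low in both lines and not in the labelled wild type, and the differences were -0.13 for 69-kDa (95% interval -0.55 to 0.29) and -0.07 for 82-kDa (-0.49 to 0.35). The dimmer probe set of RRM2 pointed the other way (log2 difference 0.59 for 69-kDa and 0.60 for 82-kDa, adjusted p = 0.17 for 69-kDa and 0.16 for 82-kDa) and passed with the block (0.0024 for 69-kDa and 0.0023 for 82-kDa), so the level of RRM2 is uncertain. RRM1, its large subunit, differed by -0.19 for 69-kDa and -0.03 for 82-kDa. TYMS, thymidylate synthase, differed by -0.30 for 69-kDa and -0.26 for 82-kDa, which the test called with the block (adjusted p = 0.018 for 69-kDa and 0.027 for 82-kDa).

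The G1/S regulators held both a fall and a rise that were seen in both lines. CCNE1, cyclin E1, read 292, 284 and 261 with the 69-kDa form, 245, 282 and 294 with the 82-kDa form and 752, 771 and 686 on the arrays labelled wild type. The groups were far apart, and CCNE1 was 2.64-fold lower in the 69-kDa line (log2 difference -1.40 (SE 0.10), adjusted p = 1.3e-05) and 2.69-fold lower in the 82-kDa line (-1.43 (SE 0.10), adjusted p = 1.1e-05), the smallest adjusted p of the 34 genes in each. E2F1, the transcription factor, read 1019, 1151 and 1175 with the 69-kDa form, 1099, 1170.2 and 1213 with the 82-kDa form and 856, 829 and 688 on the arrays labelled wild type. It was 1.41-fold higher in the 69-kDa line (adjusted p = 0.0074) and 1.47-fold higher in the 82-kDa line (0.0042), and its dimmer probe set rose by log2 differences of 0.50 for 69-kDa and 0.56 for 82-kDa. CCNE2, cyclin E2, read 127 to 278 with the 69-kDa form, 148 to 247 with the 82-kDa form and 246 to 369 in the labelled wild type, and was not called without the block (adjusted p = 0.29 for 69-kDa and 0.24 for 82-kDa). It fell in the fit with the block (0.016 for 69-kDa and 0.011 for 82-kDa) and in replicates 2 and 3 alone (adjusted p = 0.013 for 69-kDa and 0.0021 for 82-kDa). The dimmer probe set of CCNE2 differed by -0.31 for 69-kDa and -0.28 for 82-kDa. That probe set passed neither with the block (adjusted p = 0.10 for 69-kDa and 0.13 for 82-kDa) nor in replicates 2 and 3 alone (0.096 for 69-kDa and 0.091 for 82-kDa). CDC25A, the phosphatase that activates CDK2, differed by 0.03 for 69-kDa and 0.35 for 82-kDa and was not called. Neither were CHAF1A, a histone chaperone subunit that follows the fork (-0.23 for 69-kDa and 0.02 for 82-kDa), and UNG, which removes uracil from DNA (0.35 for 69-kDa and 0.48 for 82-kDa), in the fit without the block. CDC25A rose in the 82-kDa line in replicates 2 and 3 alone (0.57, adjusted p = 0.0022). UNG rose in both lines in those replicates (0.40 for 69-kDa and 0.65 for 82-kDa, adjusted p = 0.0079 for 69-kDa and 0.00092 for 82-kDa).

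Between the lines none of the 34 genes passed the test. By limma 0 of all 22215 probe sets passed between the 82-kDa and the 69-kDa line (0%), and 1 of the 34 genes had an unadjusted p under 0.05, beside 3.3% of all probe sets. That gene was ORC1, 0.51 (SE 0.21) higher on the log2 scale in the 82-kDa line (95% interval 0.03 to 0.98, unadjusted p = 0.039). In replicates 2 and 3 alone the ORC1 difference was 0.76 and passed (adjusted p = 0.023), as did 2.04% of all probe sets (0.981% higher and 1.06% lower). The half-width of the unadjusted 95% interval ran from 0.18 to 0.94 over the 34 genes with a median of 0.36. A difference smaller than the half-width of its gene could not reach an unadjusted p under 0.05. Larger differences could also be missed after the adjustment over all probe sets. With all replicates the ORC1 difference exceeded its half-width and still did not pass. The smallest adjusted p of any probe set by limma was 0.26 there. Groups did not overlap at 4 genes, all higher in the 82-kDa line (MCM2, MCM7, LIG1 and CHAF1A), and at 0 lower, beside 3.18% and 3.66% of all probe sets (6.84% in either direction). The sign was positive at 27 of the 34 genes, with a median difference of 0.10, beside 11445 of all 22215 probe sets and a median of 0.00404 over them. Among the 28 genes of G2 and mitosis described below it was positive at 27, with a median of 0.22. The median of the 34 was -0.00479 without replicate 3 of the 82-kDa line and 0.00724 without replicate 1 of the 69-kDa line. It was 0.204 without replicate 1 and 0.046 without replicate 2 of the 82-kDa line, and 0.12 without replicate 2 or 3 of the 69-kDa line. In replicates 2 and 3 alone the sign was positive at 31 of the 34 genes and negative at 3, with a median of 0.12. Over all probe sets 11413 were positive and 10782 negative there, with a median of 0.00324. These shifts were not tested.

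Replicate 1 was the low array for many of these genes. It lay below both other replicates in all 3 groups at 12 of the 34 genes (35.3%), beside 16.2% of all probe sets, and above both in all 3 groups at 2 (5.88%), beside 25.1%. Over all genes by brightest probe set these shares were 18% and 23.9%. The 12 were MCM3, MCM4, GINS1, POLA1, PCNA, RFC3, RFC4, FEN1, RRM1, TYMS, CCNE2 and UNG, and the 2 were CDT1 and RFC1. This split of the arrays was chosen with these data known, so it is a description. PCNA on replicate 1 was 51.6%, 53.1% and 59.5% of the geometric mean of replicates 2 and 3 in the 69-kDa line, the 82-kDa line and the labelled wild type. UNG was 52.5%, 40.4% and 58.0%, and CCNE2 was 46.2%, 60.8% and 70.7%. The dimmer probe set of CCNE2 did not show this, with 111%, 119% and 96.3%. The median over the 34 genes of replicate 1 minus the mean of the others was -0.18, -0.44 and -0.021 on the log2 scale in the same order, beside 0.043, 0.037 and 0.033 over all probe sets. The labels do not say what the replicate numbers share, and a cause was not tested. In replicates 2 and 3 alone 7 of the 34 genes rose and 11 fell in the 69-kDa line (18.5% and 20.5% of all probe sets, 39% in all), and 11 rose and 9 fell in the 82-kDa line (19.4% and 20.2%, 39.6% in all). Over all genes by brightest probe set the shares called there were 43.5% for 69-kDa and 44.1% for 82-kDa.

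**Figure D4:**
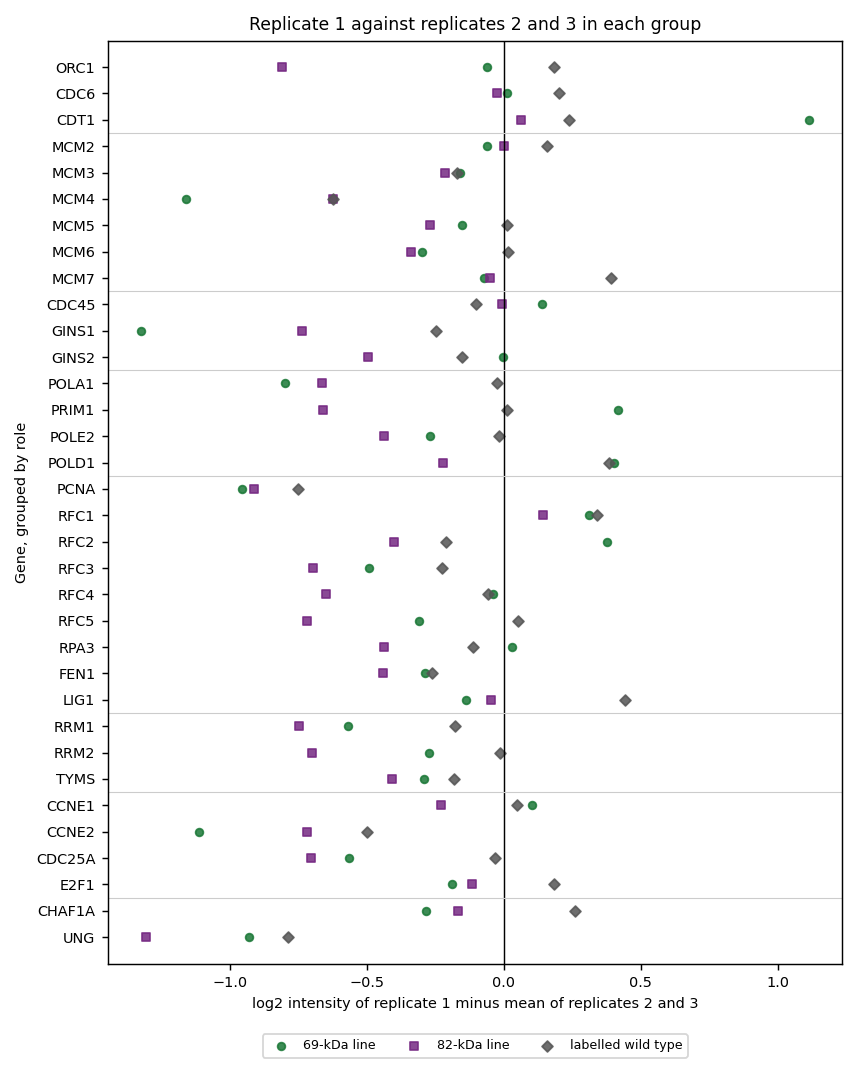
Log2 intensity of replicate 1 minus the mean of replicates 2 and 3 for each of the 34 genes, in the 69-kDa line (circles), the 82-kDa line (squares) and the arrays labelled wild type (diamonds). Points left of 0 are genes that were lower on replicate 1. PCNA, UNG, CCNE2, MCM4 and GINS1 lie left of 0 in all 3 groups, and CDT1 in the 69-kDa line lies farthest right.

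Other genes of the replication machinery also moved both ways. Of 30 measured, 2 rose and 7 fell in the 69-kDa line (30% beside 26.2% of all probe sets), and 3 rose and 7 fell in the 82-kDa line (33.3% beside 26.8%), shares near those of all probe sets. RPA2, the middle subunit of RPA, read 798, 1019 and 1074 with the 69-kDa form, 810.4, 847 and 896 with the 82-kDa form and 2118, 1718 and 1902 on the arrays labelled wild type, and was 1.99-fold (69-kDa) and 2.24-fold (82-kDa) lower (adjusted p = 0.00050 for 69-kDa and 0.00020 for 82-kDa). RPA1, the large subunit, named after its values were seen, was 1.5-fold (69-kDa) and 1.48-fold (82-kDa) lower (0.0048 for 69-kDa and 0.0055 for 82-kDa), so all 3 subunits of RPA fell in both lines. CHAF1B, the partner of CHAF1A, was 1.89-fold (69-kDa) and 1.87-fold (82-kDa) lower (0.00011 for 69-kDa and 0.00012 for 82-kDa). GMNN, geminin, the inhibitor of CDT1, was 1.69-fold (69-kDa) and 1.52-fold (82-kDa) lower (0.0036 for 69-kDa and 0.012 for 82-kDa), so CDT1 and its inhibitor fell together. GINS3, unlike GINS2, was 2.28-fold (69-kDa) and 2.36-fold (82-kDa) higher (0.0040 for 69-kDa and 0.0032 for 82-kDa). TIMELESS, of the fork protection complex, was 1.8-fold (69-kDa) and 1.59-fold (82-kDa) higher (0.00020 for 69-kDa and 0.00082 for 82-kDa), while its partner TIPIN, also named after its values were seen, was 2.0-fold (69-kDa) and 1.94-fold (82-kDa) lower (0.0081 for 69-kDa and 0.010 for 82-kDa).

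Of 13 other genes of nucleotide supply 4 rose and 1 fell in the 69-kDa line (38.5% beside 26.2% of all probe sets), and 5 rose and 1 fell in the 82-kDa line (46.2% beside 26.8%). PAICS, a purine synthesis enzyme, was 1.65-fold (69-kDa) and 1.74-fold (82-kDa) higher (adjusted p = 0.0010 for 69-kDa and 0.00058 for 82-kDa), DUT, which breaks down dUTP, 1.81-fold (69-kDa) and 1.83-fold (82-kDa) higher (0.0088 for 69-kDa and 0.0084 for 82-kDa), and NME1, a nucleoside diphosphate kinase, 1.52-fold (69-kDa) and 1.6-fold (82-kDa) higher (0.013 for 69-kDa and 0.0078 for 82-kDa). GART, another purine enzyme, was 1.48-fold (69-kDa) and 1.53-fold (82-kDa) lower (0.0099 for 69-kDa and 0.0067 for 82-kDa). Of 19 other regulators of G1/S 3 rose and 3 fell in the 69-kDa line (31.6% beside 26.2%), and 4 rose and 3 fell in the 82-kDa line (36.8% beside 26.8%). CDKN1A, the inhibitor of cyclin E-CDK2, was 3.83-fold (69-kDa) and 4.41-fold (82-kDa) lower (7.0e-06 for 69-kDa and 3.7e-06 for 82-kDa). E2F6, a repressor of the E2F family, was 1.89-fold (69-kDa) and 1.61-fold (82-kDa) higher (0.00054 for 69-kDa and 0.0026 for 82-kDa), and E2F8, another repressor, 1.57-fold (69-kDa) and 1.45-fold (82-kDa) lower (0.00085 for 69-kDa and 0.0026 for 82-kDa). FBXW7, which marks cyclin E for destruction, was 1.29-fold (69-kDa) and 1.37-fold (82-kDa) higher (0.012 for 69-kDa and 0.0041 for 82-kDa). CDK2, the partner of cyclin E, was 1.46-fold higher in the 82-kDa line (0.0014) and differed by 0.19 in the 69-kDa line (0.15).

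Genes of G2 and mitosis, which act later in the same cycle, mostly fell where they were called. Of 28 measured, 2 rose and 13 fell in the 69-kDa line (53.6% beside 26.2% of all probe sets) and 2 rose and 11 fell in the 82-kDa line (46.4% beside 26.8%). Over all genes by brightest probe set the shares were 29.4% for 69-kDa and 30.3% for 82-kDa. They had median log2 differences of -0.63 for 69-kDa and -0.34 for 82-kDa, where the replication and G1/S genes had -0.22 for 69-kDa and -0.11 for 82-kDa. Of the 28 genes 5 lay higher and 23 lower in the 69-kDa line, and 11 higher and 17 lower in the 82-kDa line. In replicates 2 and 3 alone the medians of the G2 and mitosis genes were -0.50 for 69-kDa and -0.23 for 82-kDa, and those of the replication and G1/S genes -0.14 for 69-kDa and 0.023 for 82-kDa. CDC25B, a phosphatase of mitotic entry, was 2.19-fold (69-kDa) and 2.26-fold (82-kDa) lower (adjusted p = 2.1e-05 for 69-kDa and 1.7e-05 for 82-kDa), and AURKB, a mitotic kinase, 1.91-fold (69-kDa) and 1.82-fold (82-kDa) lower (0.00021 for 69-kDa and 0.00032 for 82-kDa). Replicate 1 was lowest in all 3 groups at 15 of these 28 genes (53.6%). The difference between the groups of genes was not tested.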

How the data were processed

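The deposited values are probe set intensities on a linear scale, made by the authors with RMA (background correction, normalization between arrays, summary of probes) per the submitters' processing notes; the sources used here do not give software, version or how the linear scale was reached. Columns of other series numbered 0. Of 22283 probe sets, 68 controls were set aside and 22215 tested. The platform annotation gave 19065 a single symbol and 1043 several, which were not named; 19059 matched RefSeq (GRCh38.p14) by Entrez ID, changing 0 symbols. After log2 transformation, 3 group means over the 9 arrays were estimated by limma 3.58.1 under R 4.3.3 (lmFit, eBayes; 2-sided, Benjamini-Hochberg over all probe sets, threshold 0.05). With 3 arrays a group, their number limits the precision. The fit was tested on simulated data. RMA can compress the differences of dim probe sets.

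Same-numbered arrays of different groups deviated together from their group means (r = 0.28 to 0.57 over probe sets, 9 of 9 pairs above 0.1). Replicate 1 deviated from replicates 2 and 3 of other groups oppositely (-0.59 to -0.28). The numbers were used as a block. Replicates 2 and 3 of different groups correlated as well (0.21 to 0.48, 6 pairs), so only replicate 1 stands apart and a pairing of numbers 2 and 3 is not shown. The labels name no batch. Deviations within a group sum to 0, which partly forces the negative values.

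Genes and lists were chosen with earlier results of these data known. Named were all 34 genes, with values on every array for those called and for MCM2 to MCM7, PCNA, CCNE1, E2F1, CDC6, CDT1 and RRM2, and up to 4 called genes of each other list per contrast, by smallest adjusted p.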

Additional observations from a re-analysis of the deposited data

How the results depend on the processing

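Median centring, a second quantile normalization, a pseudocount of 16, leaving out dim probe sets, eBayes with trend and robust settings, the next brightest probe set and a fit to the 6 arrays compared kept the counts of changed genes within 1.5 times (10 in the 69-kDa line, 9 in the 82-kDa line, 0 between the lines). With the replicate number as a block the counts were 17 in the 69-kDa line, 16 in the 82-kDa line and 0 between them. With replicate 1 as its own block, chosen after seeing the data, they were 20 (69-kDa) and 17 (82-kDa), and in replicates 2 and 3 alone 18 (69-kDa), 20 (82-kDa) and 1 (between the lines). Without _x_at and _s_at probe sets 25 of the genes remained, with 6 (69-kDa) and 5 (82-kDa) called. A threshold of 0.01 left 6 in the 69-kDa line. Array weights gave 20 (69-kDa), 19 (82-kDa) and 27 (between the lines), and turned the sign between the lines at MCM3 (-0.030) and RFC2 (0.15), but their estimate stopped before convergence, with weights of 59.4 and 61.1 on replicate 2 of the 69-kDa and 82-kDa lines and at most 0.75 on the other arrays. Leaving out each array in turn gave 7 to 11 genes in the 69-kDa line, 7 to 14 in the 82-kDa line (14 without its replicate 1) and 0 between the lines. The block ended no call of a gene. The median difference of the 34 genes ran from -0.28 to -0.13 in the 69-kDa line and from -0.20 to -0.0063 in the 82-kDa line when each array was left out, the values nearest 0 being those without replicate 1 of the line. In replicates 2 and 3 alone the 82-kDa median turned to 0.023. Probe sets near background and 3 arrays a group limit what small differences can show.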

Other observations

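Genes of chromatin duplication and of repair at the fork, listed after the other results were seen, also moved both ways. Of 11 chromatin genes measured 2 rose and 2 fell in the 69-kDa line (36.4% beside 26.2% of all probe sets), and 3 rose and 2 fell in the 82-kDa line (45.5% beside 26.8%; limma, adjusted p under 0.05). HAT1, which acetylates new histone H4, read 272, 486 and 542 with the 69-kDa form, 308, 551 and 623 with the 82-kDa form and 904, 1266 and 1319.5 on the arrays labelled wild type, and was 2.76-fold (69-kDa) and 2.43-fold (82-kDa) lower (adjusted p = 0.010 for 69-kDa and 0.019 for 82-kDa). The histone chaperones ASF1A and ASF1B parted. ASF1A was 2.08-fold (69-kDa) and 1.8-fold (82-kDa) higher (0.0066 for 69-kDa and 0.019 for 82-kDa), and ASF1B 1.86-fold (69-kDa) and 1.8-fold (82-kDa) lower (0.00054 for 69-kDa and 0.00074 for 82-kDa). CBX5, a heterochromatin protein, was 2.04-fold (69-kDa) and 2.21-fold (82-kDa) higher (0.00092 for 69-kDa and 0.00050 for 82-kDa).

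Of 13 genes of repair and checkpoint signalling at the fork 2 rose and 2 fell in each line (30.8% in each, near the share of all probe sets). CHEK1, the checkpoint kinase, was 1.56-fold (69-kDa) and 1.64-fold (82-kDa) higher (adjusted p = 0.035 for 69-kDa and 0.022 for 82-kDa), and RAD17, a loader of the checkpoint clamp, 1.4-fold (69-kDa) and 1.32-fold (82-kDa) higher (0.011 for 69-kDa and 0.026 for 82-kDa). RAD54L, a recombination factor, was 2.23-fold (69-kDa) and 1.72-fold (82-kDa) lower (0.0057 for 69-kDa and 0.035 for 82-kDa), and FANCI 1.45-fold (69-kDa) and 1.38-fold (82-kDa) lower (0.0039 for 69-kDa and 0.0089 for 82-kDa).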
